A study of Mus musculus with 8 samples.

Results

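The mRNA nuclear export factors described here are 10 genes of the pathway that carries spliced messenger RNA from the nucleus to the cytoplasm, namely Nxt1, Nxf1, Alyref, Thoc1, Thoc2, Thoc5, Thoc6, Ddx39b, Xpo1 and Gle1. They were a list of gene names chosen with earlier results of these data known, so their differences between the groups are given as a description: values come without a p, and counts of calls stand beside the share of all genes called and support nothing. All 10 were found by name among 56748 gene IDs, and all 10 were among the 14942 genes with enough counts to be tested. RNA was sequenced from mouse bone marrow-derived mast cells (BMMCs), primary mast cells grown in IL-3 from the marrow of C57BL/6 mice that the study's methods place in young adulthood. The 4 Mettl3-RNP samples, whose genotype the labels give as Mettl3 KO, were electroporated with Cas9 ribonucleoproteins against Mettl3, the catalytic subunit of the enzyme that places N6-methyladenosine (m6A) on mRNA. The 4 Pulsed samples, labelled Mettl3 WT, received the electric pulse without Cas9 ribonucleoproteins, so the nuclease itself also separates the groups. Both groups came from cultures of 4 mice and were unstimulated, and the same replicate numbers, 1 to 4, were used in both. The Mettl3-RNP cells were not sorted and kept a share of untargeted cells.

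Export of mRNA begins while the transcript is being made and spliced. The TREX complex, built from the THO subunits, the helicase DDX39B and the adapter ALYREF, is loaded onto the RNA near the cap and at exon junctions. TREX hands the RNA to the export receptor, a pair of the proteins NXF1 and NXT1, which passes through the nuclear pore. On the cytoplasmic face GLE1 activates a helicase that strips the export proteins from the RNA. XPO1, also called CRM1, is a Ran-dependent exportin that carries proteins and a subset of RNAs along a separate route. The m6A machinery is known to meet this pathway, since its nuclear reader and writer proteins bind export factors. The files hold RNA levels only, and neither m6A nor the location of RNA in the cell was measured in them.

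The writer complex acts mainly on adenosines in a short sequence context of which GGACT, as read in DNA letters, is the commonest form. Windows around this motif are shown for the export receptor, the helicase and the adapter, the members on which the comparisons turn. Each window is 21 bases of the strand of the gene in GRCm39, lies in a coding exon of the Ensembl canonical transcript in GENCODE, and has the motif in capitals.
Nxt1, chr2:148517573-148517593, plus strand: aaacagcgGGACTtcaaccag
Nxt1, chr2:148517660-148517680, plus strand: cggttccaGGACTgggccagc
Nxf1, chr19:8747637-8747657, plus strand: aataactgGGACTacaccaga
Ddx39b, chr17:35462240-35462260, plus strand: gagctcttGGACTacgaagac
Ddx39b, chr17:35465984-35466004, plus strand: cgtcgtggGGACTcctggccg
Ddx39b, chr17:35472052-35472072, plus strand: atgccagaGGACTcggacacc
Alyref, chr11:120488479-120488499, minus strand: tccaacctGGACTtcggagtg
The motif is common: on the sense strand, which alone was searched, 93.8% of the canonical transcripts of 12056 tested protein-coding genes held at least 1. A motif marks letters in the transcript and not a methylated base.

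The members differed in how densely their transcripts held the motif. Ddx39b had 2.28 GGACT per kb of canonical transcript and Gle1 had 2.21, against a median of 1.04 over the tested protein-coding genes. Per kb of longest transcript Ddx39b had 1.39 (72.7th percentile) and Gle1 2.13 (93.8th percentile), so that the density of Ddx39b depends on the transcript taken. Nxt1 had 1.25 per kb from 3 motifs, 2 of them coding, which put it at the 63.7th percentile. Thoc1 and Thoc2 were the sparsest, with 0.478 and 0.394 per kb.

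Mettl3, the targeted gene (ENSMUSG00000022160), was lower in the Mettl3-RNP library than in the Pulsed library of the same number in 4 of 4 pairs. Its level was 12.3, 9.18, 4.88 and 9.21 CPM (counts per 1000000) in Mettl3-RNP libraries 1 to 4, and 25.9, 24.5, 11.2 and 26.5 CPM in Pulsed libraries 1 to 4. The denominator of CPM was the counts in tested genes after TMM scaling. The fitted log2 fold change, Mettl3-RNP against Pulsed, was -1.30 with a standard error (SE) of 0.109 and an adjusted p of 0.00543 (edgeR quasi-likelihood test, n = 4 a group). In a fit without the replicate number the value was -1.31, and the adjusted p was 0.744 (edgeR). The groups overlapped, because Pulsed 3 lay below Mettl3-RNP 1. Across this unsorted population, fewer cells with the transcript and less transcript per cell cannot be told apart.

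Total counts ran from 32643260 to 41351831 over the Mettl3-RNP libraries and from 33942160 to 45324826 over the Pulsed libraries. The defining genes of mast cells were abundant, with a summed level over 8 markers of 36821 to 52314 CPM in Pulsed and 32271 to 44435 CPM in Mettl3-RNP libraries, of which only Cpa3 passed the test, with a lower level. The 4 basophil markers summed to 500.3 to 628 CPM in Pulsed and 510.2 to 823 CPM in Mettl3-RNP libraries, and none passed the test. Markers of other marrow cells were near 0: the 6 macrophage markers summed to at most 9.85 CPM, with Csf1r, C1qa and C1qb under 1 CPM in every library and Adgre1 lower in Mettl3-RNP, the 4 erythroid markers to at most 4.73 CPM, and the 6 neutrophil markers to at most 0.373 CPM, with S100a8, S100a9 and Elane at 0 in all. Both libraries of number 3 stood apart in immediate early genes, at 18269 CPM (Mettl3-RNP) and 15755 CPM (Pulsed) summed over Fos, Fosb, Jun, Junb, Egr1 and Ier2, against 164 to 4797 CPM in the other 6 libraries. Mettl3-RNP 2 stood apart in the summed level of 1547 olfactory and vomeronasal receptor genes, with 287 CPM against 48.3 to 167 CPM elsewhere. For this receptor sum alone the denominator of CPM was the counts in all genes, without TMM scaling. The part of either in the values below was not tested, and values without these numbers are given where they change a count.

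The first comparison asked how the 10 export factors stood in cells depleted of Mettl3. The small subunit of the export receptor, Nxt1, was 2.11-fold higher in Mettl3-RNP cells, and the helicase Ddx39b was 1.38-fold higher. The other 8 members are the large receptor subunit Nxf1, the adapter Alyref, the 4 THO subunits among the members, Xpo1 and Gle1. They had fitted log2 fold changes from -0.19 (Thoc5) to -0.01 (Alyref). The ranges of CPM in the groups did not overlap for 2 members, Nxt1 and Ddx39b, both higher in Mettl3-RNP, while 2.03% of the 14942 tested genes were higher without overlap and 1.2% lower. At an adjusted p of 0.05 or less (edgeR), 2 of the 10 members were called higher and 0 lower, where 2.35% of all tested genes were called higher and 1.39% lower. With a fold change of at least 1.5 as well, 1 of 10 was called, against 1.24% of all genes called higher and 0.816% lower. Without number 2, 0 members and 26 of 14904 genes were called (edgeR), and without the replicate numbers in the fit 0 members and 0 of 14942 genes were. Before adjustment, 2 members were below 0.05 by edgeR in both of these fits. So were 2236 of the 14904 genes in the first fit, but only 579 of the 14942 in the second. Without number 1, Nxt1 and 332 of 15249 genes passed the adjusted p. Since the same contrast was known when the members were chosen, nothing is read from these counts.

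**Figure D1:**
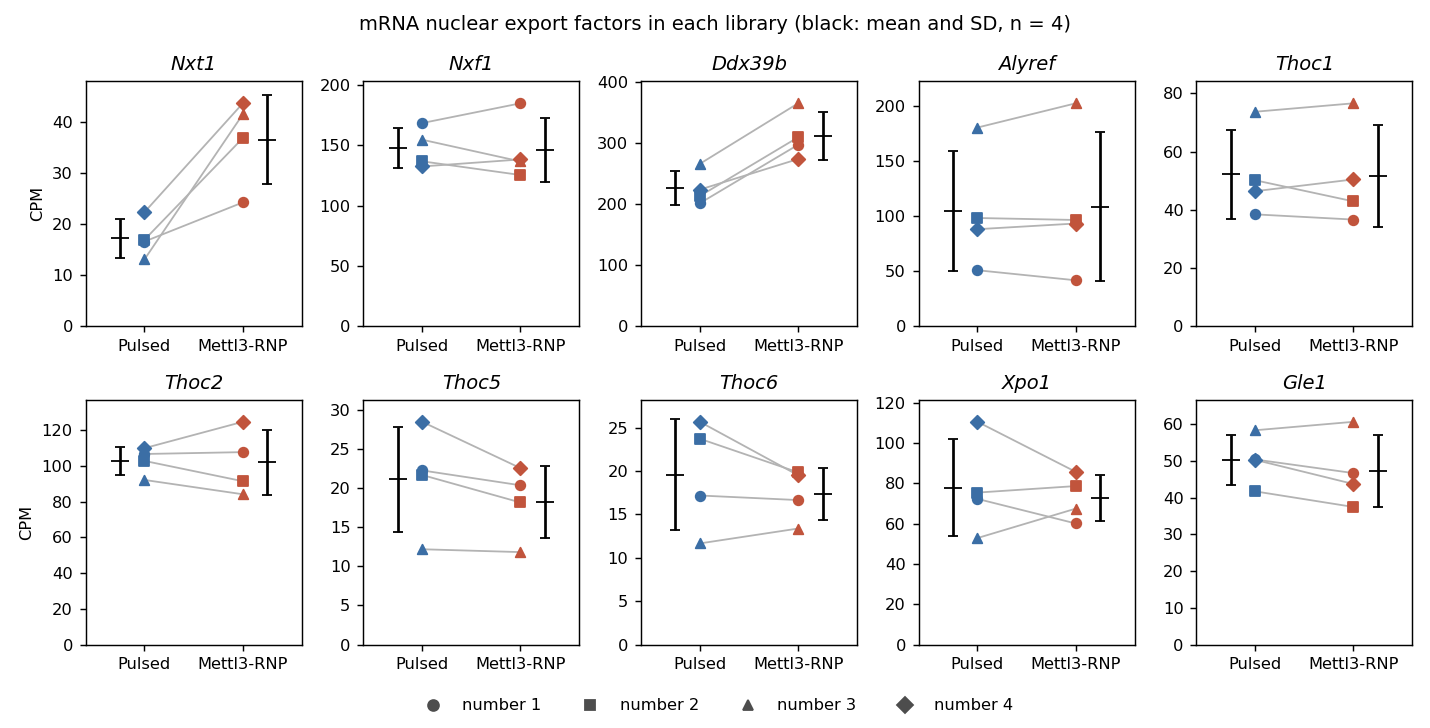
Level of each of the 10 export factors in CPM (vertical axis, from 0, a separate scale for each gene) in the 4 Pulsed (blue) and 4 Mettl3-RNP (red) libraries; marker shapes give the replicate number, grey lines join libraries of the same number, and black bars give the mean and SD (n = 4). The Mettl3-RNP libraries of Nxt1 lie between 24.2 and 43.6 CPM and those of Ddx39b between 274 and 365 CPM, above all Pulsed libraries, while the groups overlap for the other 8 genes.

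NXF1 and NXT1 form the export receptor, and NXT1 is the small partner that holds NXF1 in the form able to enter the pore. Nxt1 (ENSMUSG00000036992, chromosome 2, 148514521 to 148519364, plus strand) was at 16.5, 16.9, 13.1 and 22.3 CPM in Pulsed libraries 1 to 4. In Mettl3-RNP libraries 1 to 4 it was at 24.2, 36.8, 41.4 and 43.6 CPM. The lowest Mettl3-RNP library was thus above the highest Pulsed library, and the means were 36.5 ± 8.69 and 17.2 ± 3.82 CPM (SD, n = 4). These levels rested on 525 to 814 counts a library in Pulsed cells, and on 899 to 1575 in Mettl3-RNP cells. The differences within pairs on the log2 scale were 0.55, 1.12, 1.66 and 0.97 for numbers 1 to 4, and the fitted log2 fold change was 1.08 (SE 0.162). The pair of number 3, where the immediate early genes were highest, differed most, and without number 3 the fitted value was 0.88. Without number 2, which holds the library rich in receptor genes, it was 1.05.

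Nxf1 (ENSMUSG00000010097, chromosome 19, 8734088 to 8748289, plus strand) encodes the large subunit, which binds the RNA and the pore. It was at 168, 137, 155 and 132 CPM in Pulsed libraries and at 185, 125, 137 and 138 CPM in Mettl3-RNP libraries. Both directions occurred among the pairs, 2 higher and 2 lower, and the fitted log2 fold change was -0.03 (SE 0.0775). The ratio of Nxt1 to Nxf1, each as CPM per kb of its longest transcript, was 0.163, 0.205, 0.140 and 0.279 in Pulsed 1 to 4 and 0.217, 0.487, 0.503 and 0.523 in Mettl3-RNP 1 to 4. The ratio was higher in the Mettl3-RNP library of every pair, but Mettl3-RNP 1 lay within the range of the Pulsed group. Nxt2, the close copy of Nxt1, was low, at 3.90 ± 1.03 CPM in Pulsed and 3.52 ± 0.481 CPM in Mettl3-RNP cells (SD, n = 4), and its log2 fold change of -0.13 (SE 0.189) did not pass the test (adjusted p = 0.751, edgeR). Per kb, Nxt1 exceeded Nxt2 by 3.98 to 4.92 times in Pulsed libraries and by 7.05 to 11.6 times in Mettl3-RNP libraries.

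Ddx39b (ENSMUSG00000019432) encodes the RNA helicase also called UAP56, which joins THO to the RNA and to ALYREF. It lies on chromosome 17, 35460454 to 35472683, plus strand. It was at 201, 213, 266 and 224 CPM in Pulsed libraries and at 297, 310, 365 and 274 CPM in Mettl3-RNP libraries. The groups were close to each other, at 266 against 274 CPM, but did not overlap, and their means were 226 ± 28.1 and 311 ± 38.8 CPM (SD, n = 4). The pairs differed by 0.56, 0.54, 0.46 and 0.29 on the log2 scale, with a fitted log2 fold change of 0.46 (SE 0.0732). Ddx39a, its close copy with a similar function, did not pass the test, at a log2 fold change of -0.13 (SE 0.102, adjusted p = 0.511, edgeR). Per kb of longest transcript Ddx39b exceeded Ddx39a by 5.66 to 7.79 times in Pulsed libraries and by 8.44 to 12.2 times in Mettl3-RNP libraries.

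Alyref, the adapter that binds both the RNA and NXF1, spread more between replicate numbers than between groups. It was at 50.7, 98.1, 180 and 87.9 CPM in Pulsed libraries and at 41.5, 96.3, 202 and 93.1 CPM in Mettl3-RNP libraries, so that both libraries of number 3 were high and both of number 1 were low. The fitted log2 fold change was -0.01 (SE 0.0870), with 2 pairs higher and 2 lower. Its close copy Alyref2, a gene of 1 exon and so without junctions, gave a different picture. Alyref2 (chromosome 1, 171331046 to 171332324, plus strand) was at 13.7, 14.5, 16.2 and 14.8 CPM in Pulsed libraries and at 23.2, 19.9, 24.1 and 30.4 CPM in Mettl3-RNP libraries. It rose in 4 of 4 pairs, with a log2 fold change of 0.71 (SE 0.112, adjusted p = 0.0222, edgeR). Its list was also chosen with earlier results of these data known, so this call is a description. Alyref2 was not called by edgeR without number 1 (0.65, adjusted p = 0.0645), without number 2 (0.79, adjusted p = 0.0709) or in a fit that ignored the replicate numbers (0.72, adjusted p = 0.722). The ratio of Alyref to Alyref2 per kb was accordingly lower in the Mettl3-RNP library of each pair, at 0.623, 1.69, 2.91 and 1.07 against 1.29, 2.36, 3.87 and 2.06 in Pulsed 1 to 4, though the ranges of the groups overlapped. The size of such a ratio depends on the transcript lengths used, and its direction within a pair does not. Of the 50-base stretches in their canonical transcripts, 1.35% of Alyref and 0.894% of Alyref2 occurred in another annotated gene, in both cases including the other copy.

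The THO subunits form the scaffold of TREX. Thoc2, the largest of them, ranged from 92.1 to 110 CPM in Pulsed and from 84.1 to 125 CPM in Mettl3-RNP libraries, with a log2 fold change of -0.03 (SE 0.0794). Thoc1 had the same fitted value of -0.03 (SE 0.0789) and ranged from 38.4 to 73.7 CPM in Pulsed and from 36.6 to 76.6 CPM in Mettl3-RNP libraries. Thoc5, which binds NXF1 in addition to the THO core, was the only member lower in 4 of 4 pairs, by 0.04 to 0.34 on the log2 scale. Its levels were 22.3, 21.7, 12.2 and 28.5 CPM in Pulsed and 20.4, 18.2, 11.8 and 22.6 CPM in Mettl3-RNP libraries, and the fitted log2 fold change was -0.19 (SE 0.0889). Thoc6, which helps THO complexes assemble with one another, was at 11.7 to 25.7 CPM in Pulsed and at 13.4 to 19.9 CPM in Mettl3-RNP libraries, with a log2 fold change of -0.13 (SE 0.114) and 3 pairs lower.

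Xpo1 and Gle1 act at other steps. Xpo1 was at 72.2, 75.3, 52.8 and 110 CPM in Pulsed libraries and at 60.02, 78.6, 67.4 and 85.6 CPM in Mettl3-RNP libraries, and its pairs differed by -0.27, 0.06, 0.35 and -0.37 on the log2 scale. The spread of these differences was wide for their mean, and the fitted log2 fold change was -0.06 (SE 0.119). Gle1, the activator of release at the cytoplasmic face, was at 50.4, 41.7, 58.4 and 50.3 CPM in Pulsed and at 46.7, 37.5, 60.7 and 43.7 CPM in Mettl3-RNP libraries. It was lower in 3 pairs and higher in that of number 3, with a log2 fold change of -0.10 (SE 0.0726).

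**Figure D2:**
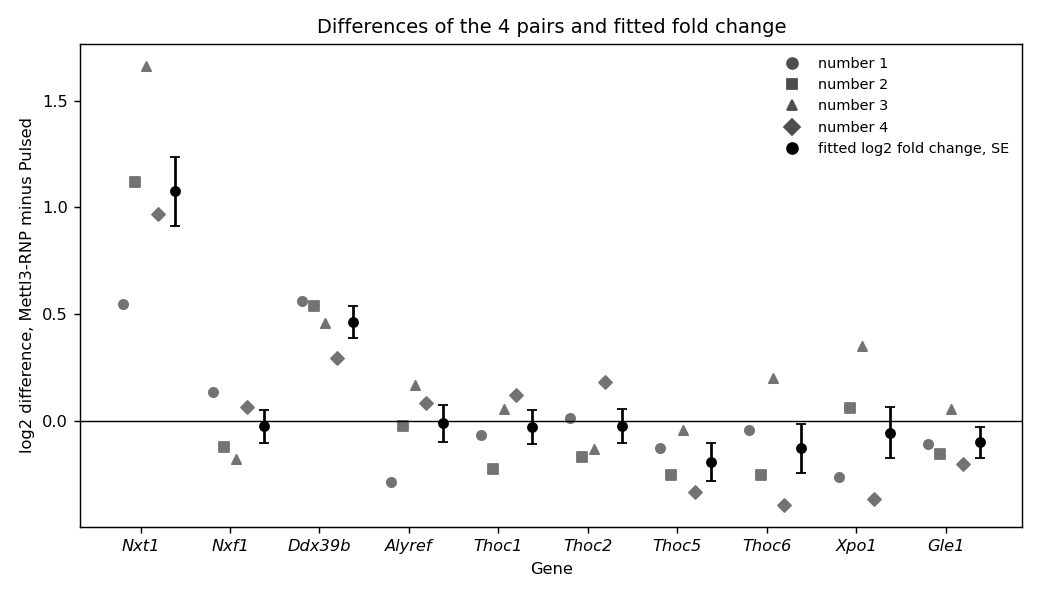
Difference in log2 CPM, Mettl3-RNP minus Pulsed, for each replicate number (grey shapes) and the fitted log2 fold change with its SE (black) for each of the 10 genes. All 4 pairs lie above 0 for Nxt1 and Ddx39b, all 4 below 0 for Thoc5, and the pairs of the other 7 genes fall on both sides of 0.

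Levels between genes were compared per kb of the longest annotated transcript. In Pulsed cells the order ran from Ddx39b at 78.6 ± 9.78 CPM per kb through Nxf1 at 33.5 ± 3.76, Alyref at 28.3 ± 14.8, Thoc2 at 13.5 ± 1.01, Thoc1 at 12.5 ± 3.63, Xpo1 at 12.1 ± 3.74, Gle1 at 11.9 ± 1.61, Thoc6 at 6.99 ± 2.29 and Nxt1 at 6.44 ± 1.43 to Thoc5 at 4.17 ± 1.33 (SD, n = 4). Of the 9 pairs of neighbours in this order, the ranges over the Pulsed libraries were apart only between Ddx39b and Nxf1 and between Gle1 and Thoc6. Ddx39b was above Nxf1 in 8 of 8 libraries, and Nxt1 above Thoc5 in 8 of 8. Per kb of canonical transcript Ddx39b was at 129 and Nxf1 at 55.3 CPM per kb, while Thoc5 at 9.33 stood above Nxt1 at 7.17 in Pulsed cells, so the order of Nxt1 and Thoc5 depends on the length used. The order of the 4 genes from Thoc2 to Gle1 does not hold beyond their spread. Nxt1 was the ninth of the 10 members in Pulsed cells and the fourth in Mettl3-RNP cells, at 13.7 ± 3.26 CPM per kb (SD, n = 4). With the union of all exons as the length, Nxt1 was the seventh in Pulsed cells, and it remained the fourth in Mettl3-RNP cells. By that length Ddx39b, at 37.5 CPM per kb, and Nxf1, at 29.5, overlapped in Pulsed cells, as did Gle1 and Thoc6, and Thoc1, at 4.65, stood below both Nxt1 and Thoc6. Apart from the places of Ddx39b, Nxf1 and Alyref as the first 3, which were the same by each length, the order in Pulsed cells therefore depends on the length used.

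**Figure D3:**
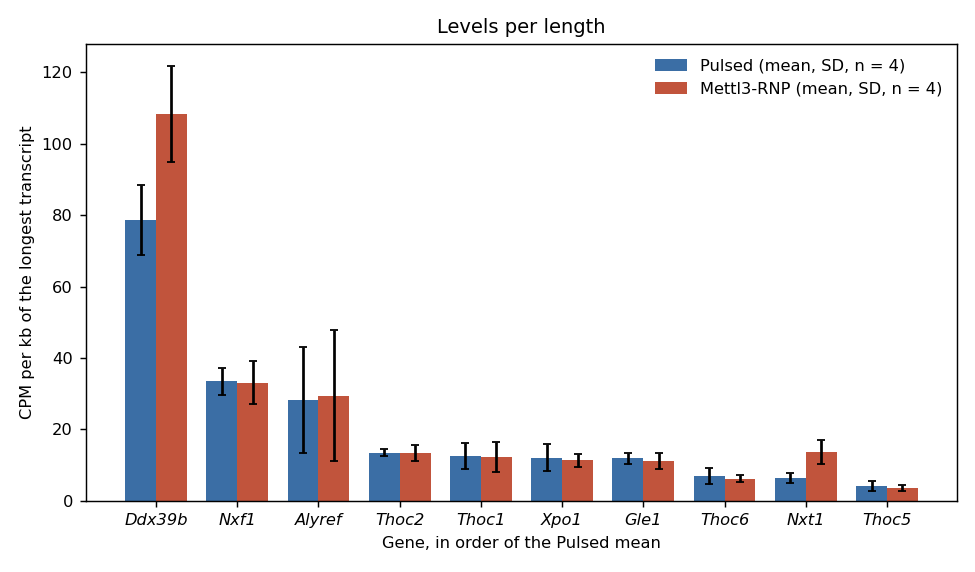
Mean CPM per kb of the longest transcript, with SD (n = 4), for the 10 export factors in Pulsed (blue) and Mettl3-RNP (red) cells, in order of the Pulsed mean, on an axis from 0. Nxt1 stands at 6.44 in Pulsed and 13.7 in Mettl3-RNP cells, and Ddx39b leads in both groups at 78.6 and 108.

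The second comparison asked how far the members differed among the 4 replicate numbers, a measure that the choice of members did not use. Each number joins 1 Mettl3-RNP and 1 Pulsed library, and 7 of the 10 members differed among numbers at an adjusted p of 0.05 or less (edgeR, F test of the 3 number terms), where 53.9% of all tested genes did. Alyref differed most, by 4.16-fold between number 3, the highest, and number 1, the lowest (adjusted p = 0.000109, edgeR). Thoc1 also had number 3 as its highest and number 1 as its lowest, with a 2.00-fold difference (adjusted p = 0.000922), and Gle1 was also highest in number 3 and lowest in number 2, a log2 difference of 0.59 (adjusted p = 0.00922, edgeR). Thoc5, Thoc6 and Xpo1 had the opposite place for number 3, in which they were lowest, while number 4 was highest. They differed by 2.11-fold (adjusted p = 0.00138), 1.79-fold (adjusted p = 0.00930) and 1.63-fold (adjusted p = 0.0293) in the same edgeR test. Nxf1 was highest in number 1 and differed by 1.35-fold (adjusted p = 0.0333, edgeR).

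Ddx39b (adjusted p = 0.0545), Thoc2 (adjusted p = 0.0554) and Nxt1 (adjusted p = 0.174) did not pass this edgeR test, with 1.27-, 1.33- and 1.56-fold between the highest and the lowest number. Some calls depended on the processing: Thoc2 was called with DESeq2, with its size factors or with library size alone, Ddx39b and Thoc2 with at least 10 counts in every library, and Nxt1 with every gene of at least 1 count, a setting in which Nxf1 and Gle1 were not called. Relative to the mean of the 8 libraries, the libraries of number 3 were 1.03 higher for Alyref, 0.58 higher for Thoc1 and 0.31 higher for Gle1 on the log2 scale, while their deviations were -0.66 for Thoc5, -0.52 for Thoc6 and -0.30 for Xpo1. Number 3 was also the number with the highest immediate early genes, and the part of that difference here was not tested. Without number 3, 5 members differed among the remaining numbers, namely Nxt1, Alyref, Thoc1, Thoc6 and Xpo1, where 27.2% of the genes tested did. The counts were 6 members without number 1 (34.3% of genes), 6 without number 2 (53.1%) and 5 without number 4 (44.5%). Subunits of THO therefore stood on different sides of the mean in the same libraries, with Thoc1 high where Thoc5 and Thoc6 were low.

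**Figure D4:**
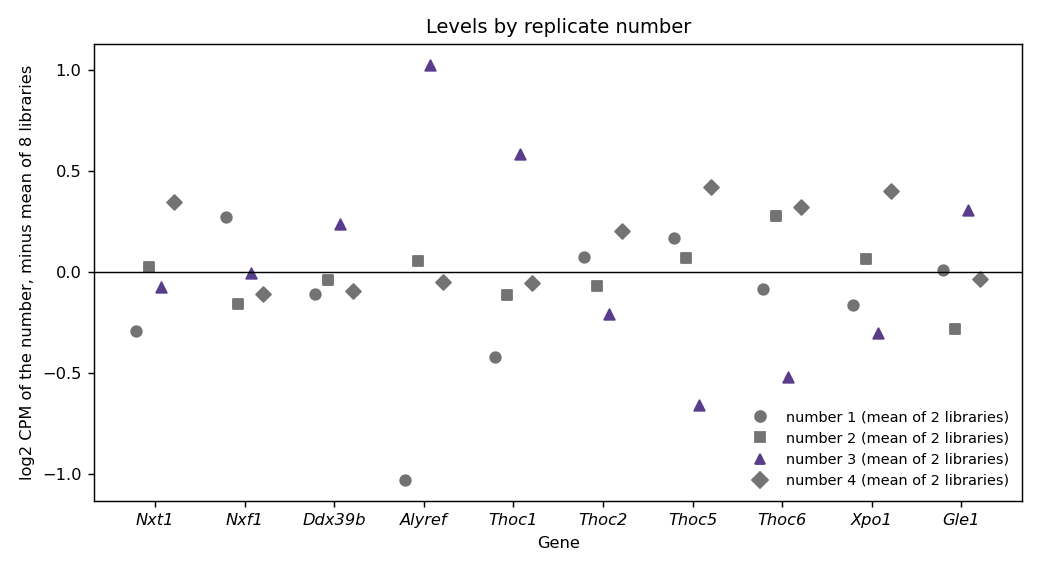
Mean log2 CPM of the 2 libraries of each replicate number, minus the mean of all 8 libraries, for the 10 export factors; purple triangles mark number 3. Number 3 lies at 1.03 for Alyref and 0.58 for Thoc1, and at -0.66 for Thoc5 and -0.52 for Thoc6.

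The wider pathway was described through 58 other genes of nuclear export, of which 57 were tested and Nxf3 was at 0 in all libraries. These genes were listed by function, but with earlier results of these data known, so their calls are a description as well. At an adjusted p of 0.05 or less (edgeR), 2 of the 57 were higher in Mettl3-RNP cells, Alyref2 and Phax, and 0 were lower, against 2.35% and 1.39% of all tested genes. Phax, the adapter that takes small nuclear RNAs to XPO1, was at 36.3, 37.3, 35.1 and 35.03 CPM in Pulsed libraries and at 50.1, 51.7, 62.2 and 60.96 CPM in Mettl3-RNP libraries. Its groups were far apart for the spread within them, at 35.9 ± 1.09 and 56.2 ± 6.23 CPM (SD, n = 4), and it rose in 4 of 4 pairs with a log2 fold change of 0.64 (SE 0.0896, adjusted p = 0.0171, edgeR). It was not called without number 2 (0.69, adjusted p = 0.0648, edgeR) or in a fit that ignored the replicate numbers (0.65, adjusted p = 0.534, edgeR). Leaving out number 2 left 0 of these 57 and 26 of all 14904 genes called. In that edgeR fit 10 of the 57 had an unadjusted p under 0.05, where 2236 of the 14904 genes did. Both Alyref2 and Phax were also past a fold change of 1.5, Phax not so without number 3 (0.57).

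In all, 42 of the 57 were fitted below 0 (73.7%), where 50.2% of all tested genes were, and the median log2 fold change was -0.10 against -0.00 for all genes. With libraries scaled by their total alone, 33 of the 57 were below 0, where 6704 of the 14942 genes tested were, and the median was -0.07 against 0.03 for all genes. Of the 13 other TREX subunits and NXF1 adapters tested, 9 were below 0 (median -0.12). TREX-2, which tethers active genes to the pore, had 4 of 6 below 0 (median -0.15), and the factors bound to the cap, exon junctions and nuclear poly(A) tail had 9 of 10 (median -0.09). The pore proteins and release factors had 8 of 13 below 0 (median -0.01), the Ran cycle with its XPO1 cofactors 7 of 9 (median -0.14), and the other exportins, most of whose cargoes are proteins, tRNA or microRNA precursors, 5 of 6 (median -0.18). Nxf7, at under 1 CPM, had a log2 fold change of 0.62 with an SE of 1.03 (adjusted p = 0.779, edgeR). Named after their values were seen, the genes with the next lowest adjusted p did not pass the edgeR test: Cetn3 of TREX-2 was at -0.33 (adjusted p = 0.0515), Ranbp1 at -0.30 (adjusted p = 0.0561), the tRNA exportin Xpot at -0.28 (adjusted p = 0.0577), Nup50 at 0.29 (adjusted p = 0.0683) and Nup42, a partner of GLE1, at 0.36 (adjusted p = 0.0701). Among replicate numbers, 43 of the 57 genes (75.4%) differed by the edgeR F test, against 53.9% of all genes.

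**Figure D5:**
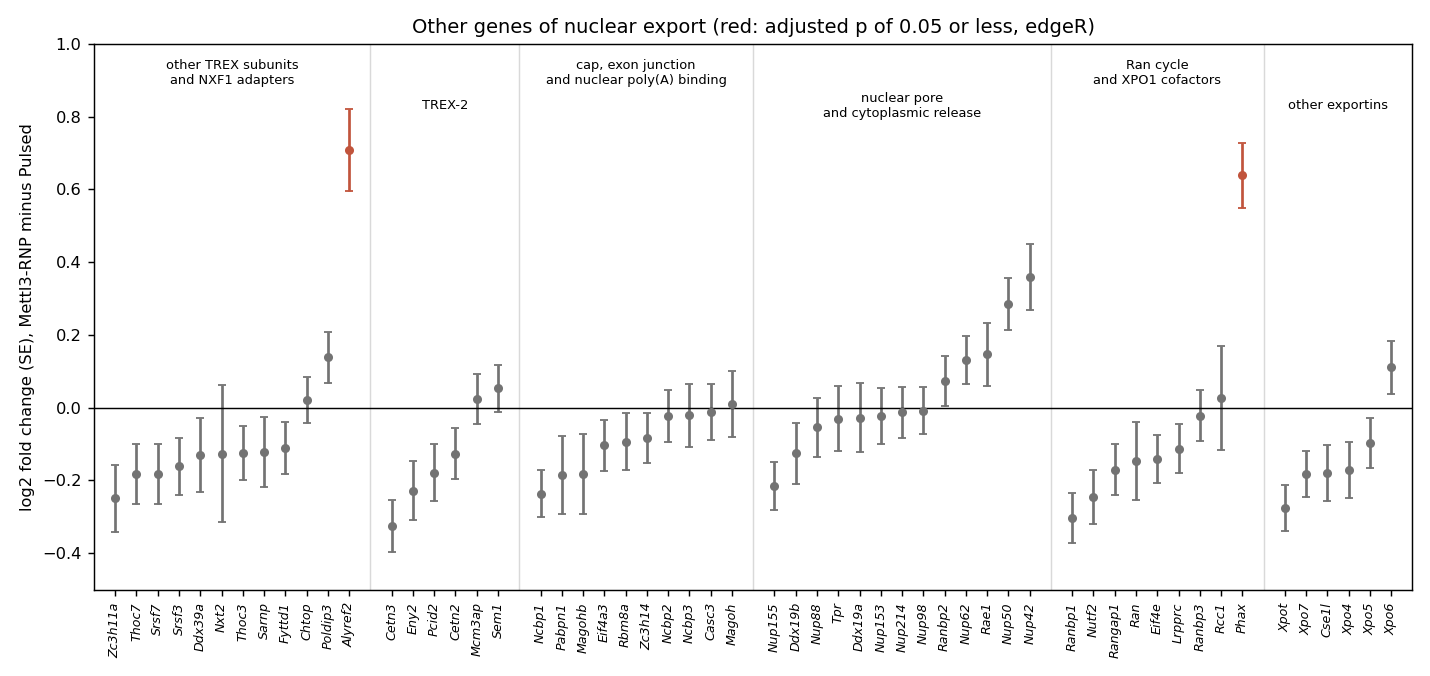
Fitted log2 fold change with SE, Mettl3-RNP minus Pulsed, for 56 of the 57 other nuclear export genes tested, grouped by function and ordered by value within each group; red marks an adjusted p of 0.05 or less (edgeR). Nxf7, with an SE of 1.03 at under 1 CPM, is left out of the plot, and only Alyref2 at 0.71 and Phax at 0.64 are red.

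The structure of the transcripts was compared because TREX is loaded at exon junctions. Nxt1 had 2 exons in its canonical transcript, with its 423 coding bases all in 1 of them, and so 0.417 junctions per kb, at the 6.56th percentile of the 12056 tested protein-coding genes. Its longest annotated transcript had 4 exons and 1.12 junctions per kb, at the 25.8th percentile. Alyref was the other member with few junctions, at 1.36 per kb (25.6th percentile), and Alyref2 had none. Ddx39b had 5.70 junctions per kb of canonical transcript (89.8th percentile) but 3.13 per kb of its longest transcript (66.8th percentile). The other 7 members lay between the 67.4th and the 99.2nd percentile by canonical and between the 76.3rd and the 88.6th by longest transcript.

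Some counts near these genes cannot be assigned without the strand setting of the counting, which was not given in the sources used here. The exons of Nxt1 share 702 bases of its canonical transcript with an antisense RNA, Gm75182, that has no row in the files. Alyref shares 546 bases with Anapc11, Thoc1 shares 2169 with Usp14 and Thoc6 shares 851 with Hcfc1r1, all on the opposite strand. None of these neighbours passed the edgeR test, at -0.21 (adjusted p = 0.328), -0.17 (adjusted p = 0.224) and -0.05 (adjusted p = 0.808) on the log2 scale. Nxf1 shares 373 bases with the antisense Gm56637, which was under 1 CPM on average in both groups. Of the 50-base stretches of the canonical transcripts, 5.15% of those of Nxt1 occur in another gene, as do 5.89% of Gle1 and 2.52% of Ddx39b, so that reads there may have been split or dropped.

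Among the 5 genes whose log2 CPM followed that of Nxt1 most closely over the 8 libraries, of 8503 with a mean of at least 10 CPM, were Abraxas2 (Pearson r = 0.977), Galnt4 (0.977), Cpped1 (0.972) and Mrps34 (0.970). These points share the group difference and the replicate numbers, so the correlations describe likeness only. Their fitted log2 fold changes, given without a test because likeness to Nxt1 chose them, were 0.27, 0.51, 0.60 and 0.69 in the same order. None of these 4 is among the export genes listed here. Among the members, r with Nxt1 was highest for Ddx39b at 0.69 and lowest for its own partner Nxf1 at -0.45.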

How the data were processed

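RNA from 4 Mettl3-RNP and 4 Pulsed samples was enriched for poly(A) RNA and sequenced in paired reads. The deposited values are whole read counts per Ensembl gene, 1 file a sample, made by the authors with HISAT2 2.2.1 on GRCm39 and featureCounts 2.0.1 after FastQC 0.11.9, per the labels. The methods of the study name a later batch correction; the deposited counts are whole numbers and so uncorrected. Strand and multi-mapping settings were not given in the sources used here. Of 56748 gene IDs, 56017 (98.7%) were named from GENCODE, and unnamed IDs held at most 0.113% of the counts.

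Counts were tested with edgeR 4.0.16 in R 4.3.3 (filterByExpr with a minimum count of 10, TMM, quasi-likelihood F test, group plus replicate number, all 8 libraries, Benjamini-Hochberg over 14942 genes). Calls required an adjusted p of 0.05 or less, with a fold change of at least 1.5 where stated. Log2 CPM had 2 as its prior count. The replicate block was kept because the 8 samples came from 4 mice, per the series description, and deviations from the group means correlated between same-numbered libraries (0.49 to 0.88 over 11985 genes, against at most 0.18 between different numbers). That a number marks 1 mouse is inferred. No libraries of a group agreed within counting noise (chi-square per degree of freedom 58.3 to 322).

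The members and the gene lists were chosen with earlier results of these data known. Named genes were the members, Mettl3, called genes of the other export lists, close copies, genes overlapping members' exons, the 5 genes most like Nxt1 (1 is not reported here) and markers at 0. Alternatives were no block, DESeq2 1.42.0 size factors and Wald test (likelihood ratio test for numbers), library size alone, other count filters, limma 3.58.1 voom, batch removal before limma-trend, a 2-fold limit, other lengths and each replicate number left out. The scripts were tested on simulated counts. Canonical transcripts were added after seeing the data.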

Additional observations from a re-analysis of the deposited data

Results flagged for a closer look

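Of 30 sets of 4 libraries examined for a value far from the rest, 1 was marked, where chance marks about 1 in 20 and so 1.5 of them. Mettl3 in Pulsed 3 was at 11.2 CPM, and the other Pulsed libraries were at 24.5 to 26.5 CPM. Mettl3-RNP 3 was also the lowest of its group, at 4.88 CPM, and the difference within that pair, -1.18 on the log2 scale, lay within the range of the 4 pairs.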

How the results depend on the processing

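Without the replicate block, edgeR called 0 of 14942 genes, 0 members and 0 other export genes at either limit (579, 2 and 2 at an unadjusted p under 0.05), and Mettl3 was at -1.31 (adjusted p = 0.744). The square root of the common dispersion was 0.407 without the block and 0.159 with it. Over all genes, calls by the adjusted p alone and by adjusted p with 1.5-fold numbered 559 and 308. They were 993 and 579 with every gene of at least 1 count, 1449 and 505 with DESeq2, and 4564 and 973 after batch removal and limma-trend, of which 49.7% of the 4564 were higher against 62.8% of the 559. With at least 10 counts in every library 959 passed the adjusted p. The other export genes past the adjusted p, 2 as reported, were 6 (3 lower) with at least 10 counts, 7 (3 lower) with DESeq2 and 25 (19 lower) after batch removal, where 3 members passed, with Thoc5 lower. The members differing among numbers, 7 as reported, were 8 with DESeq2, its size factors or library size alone (56.8%, 52.5% and 53.8% of all genes), 9 with at least 10 counts (65.4%) and 6 with every gene (22.8%). With a 2-fold limit 0 other export genes and 111 of all genes passed, and with the union of exons Nxt1 was the seventh by Pulsed level. Leaving out each number in turn gave 0 to 2 members and 0 to 2 other export genes at the adjusted p, 0 to 1 and 0 to 2 with 1.5-fold, 26 to 383 and 26 to 331 of all genes, 5 to 6 members differing among numbers (27.2% to 53.1% of all genes), and Mettl3 at -1.42 to -1.22. Without number 2 no member or other export gene was called. At an unadjusted p under 0.05 were 2 members, 10 other export genes and 2236 of all 14904 genes (edgeR). In that fit Nxt1 was at 1.05, Ddx39b at 0.43, Alyref2 at 0.79 (adjusted p = 0.0709, edgeR) and Phax at 0.69 (adjusted p = 0.0648, edgeR). Without number 1 Ddx39b (0.39) and Alyref2 (0.65, adjusted p = 0.0645) were not called, and without number 3 Alyref2 was the 1 other export gene past 1.5-fold. The cause of these shifts was not tested. Over 12 alternatives the log2 fold change of Nxt1 was 0.88 to 1.21, of Ddx39b 0.39 to 0.53, of Alyref2 0.61 to 0.79 and of Phax 0.57 to 0.69, and no value reversed. Removing the block and leaving out number 2 each ended the calls of all 4, without the block with Alyref2 at an adjusted p of 0.722 and Phax at 0.534. With 4 samples a group, the p-values with the replicate block rest only on the spread of the differences within these replicate numbers. Those without the block rest only on the spread between these cultures.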
